A study of Mus musculus with 8 samples.

Results

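Muscle stem cells (MuSCs, also called satellite cells) carried 16577 H3K56ac peaks in the sequence between genes at 10 to 100 kb from a transcription start site (TSS), 15.7% (95% Wilson interval 15.5 to 15.9) of the 105600 intervals in the merged peak list. The libraries came from Control mice and from Sirt6mKO mice, which lack Sirt6 in the muscle lineage. The list does not tell these genotypes apart, so its peaks cannot be taken as those of normal MuSCs. These distal intergenic peaks were the autosomal intervals under 5000 bp wide that overlapped no annotated gene of GENCODE vM21 and whose nearest edge lay in that range from the nearest TSS of any annotated gene, coding or not. The peaks came in crowded stretches. Of all these peaks, 60.0% had another less than 1 kb away. The stretches from Pik3r1 to Cd180, Cog6 to Foxo1, Rgma to Mctp2 and Mki67 to Mgmt held the most. Of 12 MuSC marker genes with enough intergenic sequence, 7 had 3 or more times the mean density, Cxcr4, Hey1 and Vcam1 among them. The share was 17.9% over all genes. It was 37.1% over genes with a peak of at least 5000 bp at the promoter, which 11 of the 12 had. Of 7 fibro-adipogenic marker genes, 4 also had 3 or more times the mean density. Among the MuSC markers, Pax7, Cd34 and Megf10 were closer to the mean, Calcr was below it and Myf5 had no distal peak. Of 173 olfactory and vomeronasal receptor genes, 7 (4.05%) had any. The share was 50.3% over all genes and 26.0% over genes without a peak at the promoter, and only 2 of the 173 had one there.

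H3K56ac is the acetylation of lysine 56 of histone H3, a residue at the entry and exit points of nucleosomal DNA. The mark is known from active promoters and enhancers, where the acetyltransferases CBP and p300 can place it, and SIRT6 is one of the enzymes that remove it. Enhancers often lie far from the gene they serve and need not act on the closest one, so the nearest gene named for a peak below is a label of position and not a shown target. In adult muscle, MuSCs rest between the fibre and its basal lamina, express the transcription factor Pax7, and rely on Notch signalling to stay quiescent.

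Cell sorting of C57BL/6 muscle gave the MuSCs, and their chromatin was used without culture. The paper calls the Control cells of its peak data wild type. For control mice shown beside Sirt6mKO it gives Sirt6 fl/fl without the Cre, and it states that controls were littermates. Sirt6mKO mice were Pax7-ICNCre pos Sirt6 fl/fl: exons 4 to 6 of Sirt6 were flanked by loxP sites, and a Cre that is active from the start under the Pax7 promoter removed them throughout the skeletal muscle lineage, not in adult MuSCs alone. For each genotype 2 H3K56ac libraries and 2 input libraries were made, 8 in all. The list holds 1 merged set of intervals with no value per library, so no peak below can be assigned to Control or Sirt6mKO, no strength can be given, and the list does not hold the number of reads behind a peak. Intervals given with the shares cover counting error only, because neighbouring peaks are not replicates, and the spread over the 19 autosomes stands beside them.

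The sequences below show where AP-1 and E-box letters lay in chosen distal intergenic peaks around 6 of the 7 genes with the largest numbers of such peaks. The other of the 7, Zfp608, is not shown. Each is the 200 bases around the midpoint of 1 peak, on the plus strand of mm10, read from the RefSeq copy of GRCm38. For each gene the peak whose centre held the most matches to the AP-1 letters TGANTCA and the E-box letters CAGCTG was taken, so these windows are not typical ones: over all the peaks, the central 200 bases held AP-1 letters in 6.65% and an E-box in 12.3%. AP-1 is the dimer of Fos and Jun proteins, and the E-box is bound by MyoD, Myf5 and other basic helix-loop-helix factors. Capitals mark the matches, and all other bases are in lower case.
Pik3r1: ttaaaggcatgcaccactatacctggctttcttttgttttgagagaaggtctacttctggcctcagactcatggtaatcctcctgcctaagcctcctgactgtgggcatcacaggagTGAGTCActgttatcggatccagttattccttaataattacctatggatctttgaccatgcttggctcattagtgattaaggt
Bnc2: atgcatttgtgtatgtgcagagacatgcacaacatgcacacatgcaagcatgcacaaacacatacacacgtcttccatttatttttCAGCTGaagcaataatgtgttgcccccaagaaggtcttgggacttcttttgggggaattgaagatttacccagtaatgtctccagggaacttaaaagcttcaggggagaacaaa
Cited2: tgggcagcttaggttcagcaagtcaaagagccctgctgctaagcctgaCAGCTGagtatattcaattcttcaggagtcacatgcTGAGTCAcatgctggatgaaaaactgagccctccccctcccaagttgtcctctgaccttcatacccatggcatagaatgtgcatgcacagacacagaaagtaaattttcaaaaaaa
Tnp1: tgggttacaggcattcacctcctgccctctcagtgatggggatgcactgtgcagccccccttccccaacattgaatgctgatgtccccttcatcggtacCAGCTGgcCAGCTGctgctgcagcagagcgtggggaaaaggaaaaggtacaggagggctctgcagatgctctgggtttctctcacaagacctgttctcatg
Gas1: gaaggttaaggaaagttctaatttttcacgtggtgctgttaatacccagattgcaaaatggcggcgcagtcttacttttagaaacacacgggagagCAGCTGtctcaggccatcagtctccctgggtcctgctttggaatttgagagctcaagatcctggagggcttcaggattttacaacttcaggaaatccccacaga
Lyplal1: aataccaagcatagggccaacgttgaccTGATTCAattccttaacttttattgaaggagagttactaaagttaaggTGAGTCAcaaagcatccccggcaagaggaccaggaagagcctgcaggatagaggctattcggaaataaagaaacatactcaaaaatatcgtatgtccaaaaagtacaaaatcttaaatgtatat
The window of Pik3r1 was chr13:101807872-101808071, 37.9 kb upstream of the nearest Pik3r1 TSS, and held 1 AP-1 match. That of Bnc2 was chr4:84238224-84238423, downstream of the TSS, with 1 E-box. The window upstream of Cited2, chr10:17367559-17367758, held 1 match of each kind. Beside Tnp1, chr1:72963236-72963435 lay downstream and held 2 E-boxes separated by a pair of bases. The Gas1 window, chr13:60190017-60190216, lay 12.3 kb upstream with 1 E-box, and the Lyplal1 window, chr1:186402423-186402622, lay 283 kb upstream with 2 AP-1 matches, of which 1 had T as the free base of the motif. All 6 windows lay outside annotated genes, and a match is a run of letters, not a shown binding site.

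The number of distal intergenic peaks was set against the sequence in which they could lie. Outside genes and assembly gaps, 727 Mb of autosomal sequence was 10 to 100 kb from a TSS, 30.3% of the autosomal sequence off gaps, and the peaks had a density of 22.8 per Mb (exact Poisson interval 22.5 to 23.2). Intergenic sequence under 10 kb from a TSS held 34.7 peaks per Mb, sequence over 100 kb from any TSS held 8.57 per Mb, and sequence inside genes at the same 10 to 100 kb held 43.3 per Mb, all with the same width limit. The distal intergenic density was above that beyond 100 kb and below that inside genes on 19 of 19 autosomes. It was below that of intergenic sequence under 10 kb on 18, the exception being chromosome 7 with 25.3 against 24.6 per Mb. Between autosomes the density was 23.1 ± 4.47 per Mb (SD, n = 19 autosomes), from 15.7 on chromosome 14 to 31.1 on chromosome 11. Chromosome 7 also had 24.4 peaks per Mb beyond 100 kb, the highest of the autosomes.

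Density fell with distance across the range itself. The first 10 kb, from 10 to 20 kb, had 28.4 per Mb. The step from 40 kb had 20.4 and that from 80 kb had 12.5, with 12.96 in the last 10 kb, where the interval of 11.7 to 14.4 includes the value before it. On 17 of 19 autosomes the density was lower at 90 to 100 kb than at 10 to 20 kb. The exceptions were chromosome 7, with 31.8 per Mb in the last step against 21.4 in the first, and chromosome 16, with 26.7 against 22.98. The plot of density by distance gives each autosome as a point, and the autosomes overlap widely between neighbouring steps. The limits of the range did not coincide with a step in number. There were 908 intergenic peaks in the last kb before the lower limit of 10 kb and 813 in the first kb past it. At the upper limit of 100 kb there were 39 in the kb before it and 32 in the kb after it. Just under the width limit, 33 peaks were between 4900 and 5000 bp wide, and 21 intervals at the same distances were between 5000 and 5100 bp.

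**Figure D1:**
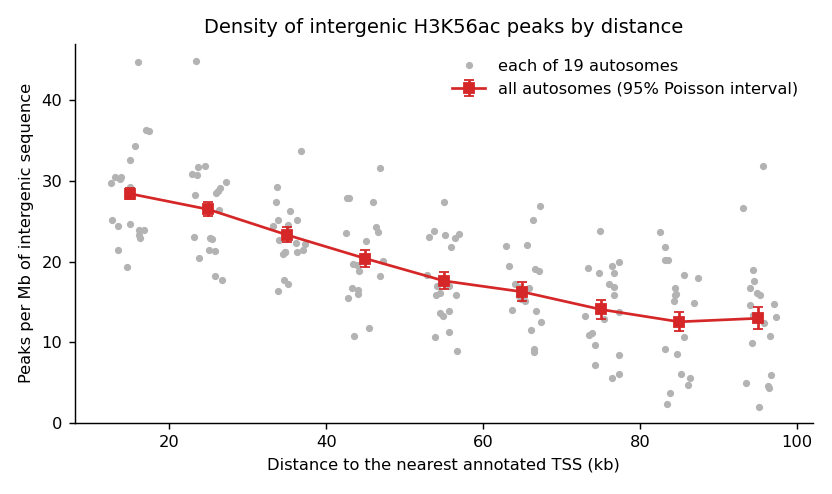
Distal intergenic H3K56ac peaks per Mb of eligible intergenic sequence (vertical axis) in steps of 10 kb of distance to the nearest annotated TSS (horizontal axis), with grey points for each of the 19 autosomes and red squares with 95% Poisson intervals for all of them. The density falls from 28.4 per Mb in the first step to 12.5 at 80 to 90 kb.

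The peaks were under 5000 bp wide by definition. Their median width was 857 bp (95% interval 845 to 867), with quartiles of 583 and 1485 bp, and the medians of single autosomes ran from 805 to 913 bp. Joining intervals less than 1 kb apart left 8217 peaks with a median of 1070 bp. Peaks at the same distance inside genes had a median of 862 bp and those beyond 100 kb a median of 852 bp, both with intervals that overlap that of the distal intergenic peaks, while promoter peaks, those no more than 1 kb from a TSS, reached a median of 1808 bp under the same width limit. Neighbouring peaks were close together, with a median gap of 3427 bp, and 60.0% (59.2 to 60.7) had another distal intergenic peak less than 1 kb away. That share ran from 56.8% to 63.5% over the autosomes.

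The nearest TSS belonged to a protein-coding gene for 5509 peaks (33.2%), to a lincRNA for 4392 and to a processed pseudogene for 3370. Each peak was therefore assigned to the nearest coding TSS as well, and the median distance to it was 63.0 kb (quartiles 29.2 and 149 kb), so that 35.7% of the peaks lay over 100 kb from a coding TSS. Of all distal intergenic peaks, 60.9% (60.1 to 61.6) were upstream of the nearest coding TSS. Of the eligible sequence, 58.9% was upstream, and the share of peaks exceeded that of the sequence on 9 of 19 autosomes. The RefSeq annotation gave a different view of some of them, since 2706 peaks (16.3%) overlapped a gene of RefSeq and 705 (4.25%) lay within 1 kb of a RefSeq gene start. RefSeq genes covered 9.28% of the eligible sequence.

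To rank genes, each eligible base was assigned to its nearest coding TSS in the same way, and the number of peaks expected for a gene was its eligible length at the mean density, 2.28 per 100 kb. Of 5303 coding genes with at least 20 kb of eligible sequence, 2666 (50.3%) had at least 1 distal intergenic peak and 947 (17.9%) had 3 or more times the expected number. Genes without a peak held 43.6% of all eligible sequence. The 425 genes with 10 or more peaks held 47.0% of the peaks and 12.9% of the sequence. Length alone ordered the genes poorly, with a Spearman rank correlation of 0.21 between eligible length and number of peaks across the 5303 genes, which are not independent of their neighbours. The plot of peaks against length shows genes with very many and with no peaks at the same length.

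**Figure D2:**
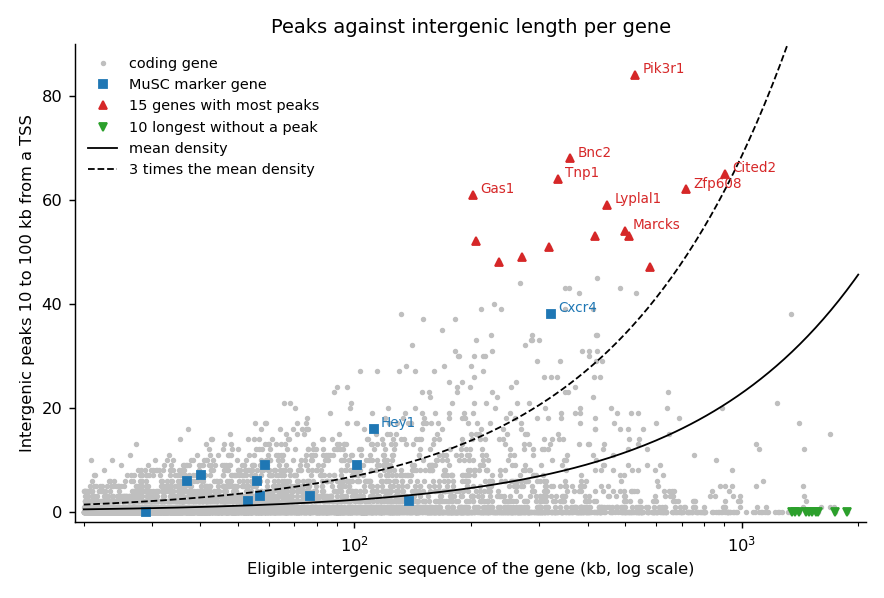
Number of distal intergenic peaks (vertical axis) against eligible intergenic sequence in kb (horizontal axis, log scale) for 5303 coding genes, with MuSC markers as blue squares, the 15 genes with most peaks as red triangles and the 10 longest without a peak as green triangles. The 15 red genes lie above the dashed curve of 3 times the mean density, and the green genes, all over 1.35 Mb, lie at 0.

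The 15 genes with the most distal intergenic peaks had 47 to 84 each and 870 in all. They were chosen by this number, so the values that follow describe them and are not evidence that peaks crowd there. Their ratio of observed to expected peaks ran from 3.14 to 13.2, and their upstream peaks outnumbered the downstream ones in 12 of the 15. Pik3r1 (chr13:101680563-101768217, minus strand), which encodes the p85 alpha regulatory subunit of phosphoinositide 3-kinase, led with 84 peaks in 531 kb of eligible sequence, a ratio of 6.93 (Poisson interval 5.53 to 8.58). Its peaks were 306 to 4571 bp wide, and 69 lay upstream, as far as 445 kb from the TSS. Bnc2, a zinc finger protein gene, followed with 68 peaks, of which 60 were downstream of the TSS. Cited2, whose product binds CBP and p300, had 65 peaks, 63 of them upstream and the farthest 1225 kb away, and with 906 kb of eligible sequence the lowest ratio of the 15, 3.14.

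Gas1, which encodes a membrane-anchored co-receptor for Hedgehog proteins, combined a high number with a high ratio. It had 61 peaks in 202 kb, 13.2 times the expected number (10.1 to 17.0), and they covered 34.0% of that sequence. Tnp1 (64 peaks) encodes a transition protein of spermatid chromatin and was the only one of the 15 without a peak within 1 kb of its TSS. Mki67 (51 peaks), the gene of the proliferation antigen Ki-67, had all of its peaks upstream, from 121 to 497 kb away. The others were the zinc finger gene Zfp608 with 62, Lyplal1 with 59, Marcks, which encodes an actin-binding substrate of protein kinase C, with 54, the small GTPase gene Rnd3 and the homeobox gene Tshz3 with 53 each, Cog6 of the Golgi tethering complex with 52, the co-receptor gene Rgma with 49, Cops8 of the COP9 signalosome with 48 and the adhesion gene Kirrel3 with 47. In the map of positions, the peaks of Pik3r1, Cited2 and Tnp1 lie mostly to the upstream side and those of Bnc2 mostly to the downstream side, in tight groups with gaps between them.

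**Figure D3:**
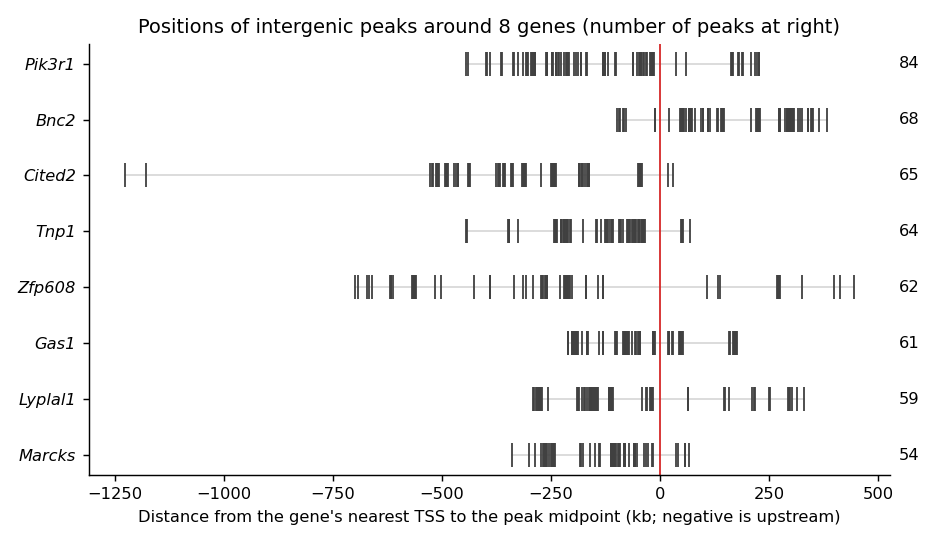
Positions of the distal intergenic peaks of the 8 genes with the most, as distance in kb from the gene's nearest TSS to the peak midpoint (horizontal axis, negative upstream), with 1 tick per peak and the number of peaks at the right. Pik3r1 has 69 of its 84 ticks upstream and Bnc2 has 60 of its 68 downstream.

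Many of these peaks lay between a pair of coding genes, so the count was repeated over the whole stretch from a coding TSS to the next, whichever gene was nearer. This count was added after the gene values were seen. The stretch between Pik3r1 and Cd180 held the most, 108 peaks, of which 39 were nearer to Cd180. Next were the stretch between Cog6 and Foxo1 and that between Rgma and Mctp2, with 91 each. Foxo1 encodes a forkhead transcription factor held back by phosphoinositide 3-kinase signalling, and 39 of the 91 peaks were nearer to it, 52 to Cog6. The stretch between Mki67 and Mgmt held 85 peaks. That between Lyplal1 and Tgfb2, the gene of a transforming growth factor, held 70, with 27 nearer to Tgfb2. For Tnp1, 60 of the 68 peaks in its stretch towards Tns1, an adhesion protein gene with peaks at its TSSs, were nearer to Tnp1. Stretches with 20 or more peaks numbered 157 of 3058 and held 32.5% of all distal intergenic peaks.

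Among genes with at least 50 kb of eligible sequence and 5 peaks, the 10 highest ratios ran from 11.7 to 13.99. Tiparp, which encodes an ADP-ribosyltransferase, was first with 21 peaks in 65.8 kb, a ratio of 13.99 (8.66 to 21.4), and 16 of them were downstream. Ppp2r2a, a regulatory subunit gene of protein phosphatase 2A, also had 21 peaks, all upstream and facing Ebf2. The helix-loop-helix gene Atoh8 had 17, at a ratio of 13.5. Lrig1, whose product restrains epidermal growth factor receptors, had 38 peaks in 132 kb, all upstream, and they covered 42.1% of its sequence. Xcl1, the gene of a lymphocyte chemokine, and the transporter gene Slc45a1 had no peak within 1 kb of a TSS, and the coding genes across from them were Tbx19 and Errfi1. The others were March10 with 17 peaks, Cecr2 with 16 and Armc2 with 24, which faced Foxo3, and Gas1 was again among them. The Poisson intervals of these 10 ratios overlap, so their order is not resolved.

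The order of genes depended on how the intervals and the annotation were treated. When only protein-coding genes and TSSs were used, 3 of the 15 genes with most peaks and 3 of the 10 highest ratios were still among the leading ones. When intervals less than 1 kb apart were joined, 9 of the 15 and 2 of the 10 were.

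The longest eligible sequences without any distal intergenic peak belonged to Pcdh7 (1.87 Mb), G6pd2 (1.74 Mb), Lrfn5 (1.58 Mb), Cntnap5b (1.56 Mb), Cdh8 (1.52 Mb), Aga (1.49 Mb), Pcdh10 (1.47 Mb), Dsel (1.41 Mb), Nova1 (1.38 Mb) and Pabpc4l (1.35 Mb). At the mean density 30.8 to 42.7 peaks would be expected around each. Pcdh7, Pcdh10 and Cdh8 encode cadherin-type adhesion proteins, Lrfn5 and Cntnap5b encode adhesion proteins of neurons, and Nova1 encodes a neuronal splicing factor. A peak within 1 kb of a TSS was nevertheless present at 6 of the 10, Pcdh7 and Pcdh10 among them. Of 44 genes with over 1 Mb of eligible sequence, 26 had no distal intergenic peak and the highest number was 38.

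Genes with a peak at the promoter (within 1 kb of a coding TSS) had distal peaks more often. Of 3439 such genes, 63.4% (61.8 to 65.0) had at least 1, against 26.0% (24.0 to 28.0) of 1864 genes without a promoter peak. The difference held at each length of eligible sequence, with 50.2% against 16.3% in the shortest of 4 equal groups by length and 68.5% against 34.2% in the one with the longest. Among the 931 genes whose promoter peak was at least 5000 bp wide, 76.6% had a distal intergenic peak, and 37.1% reached 3 times the mean density. Neighbouring genes are not independent of each other, and no test was made across genes.

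MuSC marker genes were set beside these background shares. Of 20 markers, 12 had at least 20 kb of eligible sequence. At least 1 distal intergenic peak was present at 11 of these 12, against 50.3% of all genes. Of the 12, 7 had 3 or more times the mean density, against 17.9% of all genes. They had 101 peaks where 24.7 were expected, a ratio of 4.09 (Poisson interval 3.33 to 4.97), and their median ratio was 4.29 against 0.06 over all 5303 genes. All 20 markers had a peak within 1 kb of a TSS, and 11 of the 12 had one of at least 5000 bp. The 931 genes with such a wide promoter peak are the nearer background. Their median ratio was 1.83, 76.6% had a distal intergenic peak and 37.1% reached 3 times the mean density.

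Cxcr4, the chemokine receptor that holds stem cells in their niche, had 38 distal intergenic peaks in 322 kb, 27 upstream and 11 downstream, from 11.5 to 308 kb away, a ratio of 5.18 (3.66 to 7.11). The Notch target Hey1 had 16 peaks (ratio 6.25), the adhesion molecule gene Vcam1 had 9 (6.73) and the integrin gene Itgb1 had 9 (3.89), all upstream of Itgb1. Spry1, an inhibitor of growth factor signalling that marks quiescent MuSCs, had 7 peaks in 40.1 kb (7.66), Chrdl2 had 6 (7.14), and the hepatocyte growth factor receptor gene Met had 6 (4.68). Pax7 itself had 3 peaks, all upstream at 10.6 to 23.7 kb, and a ratio of 2.31 (0.48 to 6.75), whose interval includes 1. Cd34 had 3, Megf10 had 2 and Calcr had 2, the last with a ratio of 0.63. Myf5 had none in 28.9 kb, where 0.66 would be expected, and Myod1 had 1 peak 13.7 kb upstream in 10.2 kb of eligible sequence. Heyl, Des and Sdc4 had under 20 kb of eligible sequence and no peak, and Cdh15, Itga7, Notch3 and Sox8 had no eligible sequence at all, so nothing can be read from their lack of peaks.

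The gene lists around these markers differed. The Notch pathway list had 76 peaks around 8 genes, 4.05 times the expected number (3.19 to 5.07). All 8 had at least 1, against 50.3% of all genes and 63.4% of genes with a promoter peak, which all 8 had. All but Hey2 had a promoter peak of at least 5000 bp, and of genes with such a peak 76.6% had a distal one. Of the 8, 4 had 3 or more times the mean density, against 17.9% of all genes and 37.1% of genes with such a wide promoter peak. Jag1, which encodes a Notch ligand, had 33, of which 32 were upstream, the farthest at 529.9 kb. The list includes Hey1, which is also a MuSC marker. Rbpj, the DNA-binding partner of Notch, had 8 peaks (ratio 6.45), the ligand gene Dll1 had 8 (5.63), and the target Hes1 had 7 (2.45). The receptor genes Notch1 and Notch2 had 1 each (2.02 and 1.20), and Hey2 had 2, below the mean at 0.70. Of the list of TEAD, RUNX, NFI and KLF transcription factor genes, 11 had enough eligible sequence. These were RUNX and KLF genes and Nfib, with no TEAD gene among them. They had 123 peaks, a ratio of 3.26 (2.71 to 3.89). Of the 11, 8 had 3 or more times the mean density, against 17.9% of all genes and 23.9% of genes with a promoter peak, which all 11 had. The share was 37.1% over genes with a promoter peak of at least 5000 bp, which all but Runx2, Runx3, Klf5 and Klf12 had. Runx1 had 33 and Nfib 30, and Klf3 had 17 at a ratio of 5.80. Klf12 had none where 8.71 would be expected, and Klf5 had 3 where 6.11 would be.

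Myogenic regulators were closer to the mean, at a list ratio of 1.36 (1.05 to 1.73) and with 2 of 13 genes at 3 or more times the mean density, a share near the 17.9% of all genes. These were Mef2a with 17 peaks, all upstream (ratio 7.36), and Meox1 with 5 (3.56). Eya1 had 11 peaks at a ratio of 1.67. Immediate early genes had a list ratio of 1.52 (1.17 to 1.94). Klf6 had 16 peaks and Klf4 had 13, in 417 and 319 kb of eligible sequence, at ratios of 1.68 and 1.79, whereas Fosl2, a partner of Jun in AP-1, had 7 peaks at 7.53. Genes of growth factor signalling had a ratio of 2.10 (1.73 to 2.52) over 16 genes. Tgfb2 had 27 peaks (8.26), and the receptor genes Lifr and Osmr, which face each other, had 19 (9.63) and 10 (3.95). Of the 16, 7 had 3 or more times the mean density, against 17.9% of all genes and 23.9% of genes with a promoter peak, which all 16 had. The share was 37.1% over genes with a promoter peak of at least 5000 bp, which some of the 16 had, Tgfb2 and Lifr among them. Others were below the mean. Inhba had 4 peaks where 15.1 would be expected and Bmp2 had 3 where 7.12 would be. Fgfr2, Hgf and Igf1r were also below it, and Egfr and Mstn had none. Of the sarcomere genes only 2 of 20 had enough eligible sequence. Myh2, the gene of a fast myosin heavy chain, had 8 peaks between itself and Myh3, a ratio of 11.3. The other gene, Myl1, had 2 peaks at a ratio of 1.59 (0.19 to 5.73), so the values of this list rest mostly on Myh2.

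Lists for other cell types were measured in the same way. Fibro-adipogenic genes, which mark mesenchymal cells of muscle, had 57 peaks around 7 genes, a ratio of 2.58 (1.95 to 3.34), with Dcn at 26 peaks and Col3a1 at 11, and all 7 had a promoter peak. All 7 also had a distal intergenic peak, and their median ratio was 3.41. Of the 7, 4 had 3 or more times the mean density, against 17.9% of all genes and 23.9% of genes with a promoter peak. Pdgfra, the defining gene of these cells, had 1 peak where 2.83 would be expected. Endothelial genes had a ratio of 1.15 (0.74 to 1.71) over 8 genes, with Cdh5 at 12 peaks and Cldn5 at 6, Kdr and Tek at 0, and 3 of 8 promoters with a peak. Immune genes had 19 peaks over 3 genes where 8.97 were expected, a ratio of 2.12 (1.28 to 3.31), 18 of them beside Ptprc at 133 to 530.1 kb downstream, and 0 of 3 promoters had a peak. Per the study's methods, cells with Sca1, CD31 or CD45, which mark these 3 cell types, were removed with magnetic beads before the sort, and the reanalysed sorted cells were enriched but not pure. The part of cells other than MuSCs in any of these peaks was not tested. Neuronal genes had 8 peaks over 9 genes where 19.3 were expected (ratio 0.41, 0.18 to 0.82), with Syt1 at 3 and Neurod6 at 2. A promoter peak was present at 3 of the 9. None of the 9 reached 3 times the mean density, which 17.9% of all genes and 6.71% of genes without a promoter peak did. With 9 genes, a count of 0 cannot be told apart from these shares. The hepatocyte genes Alb and Cyp3a11 had 0, where 1.90 were expected for both together, which is too few to read.

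Olfactory and vomeronasal receptor genes were the poorest large group. Of 173 with at least 20 kb of eligible sequence, 7 (4.05%) had a distal intergenic peak, against 50.3% of all genes. They had 17 peaks in all where 182 were expected at the mean density, a ratio of 0.09 (0.05 to 0.15). Only 2 of the 173 had a promoter peak, and their median eligible length was 32.6 kb. Genes without a promoter peak in the shortest of the 4 groups by length had a distal peak in 16.3% and a ratio of 0.56. Multiply aligned reads had been discarded, and their part in the low number was not tested. Of the 17 peaks, 10 were assigned to Olfr267, all downstream and facing Lpar1, and Olfr1402 had 2. The plot of the lists shows the receptor, neuronal and hepatocyte lists with medians and totals under 1. Both were above 3 for the MuSC marker list, the Notch list and the list of TEAD, RUNX, NFI and KLF genes. They were also above 3 for the sarcomere list, which has only 2 genes.

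**Figure D4:**
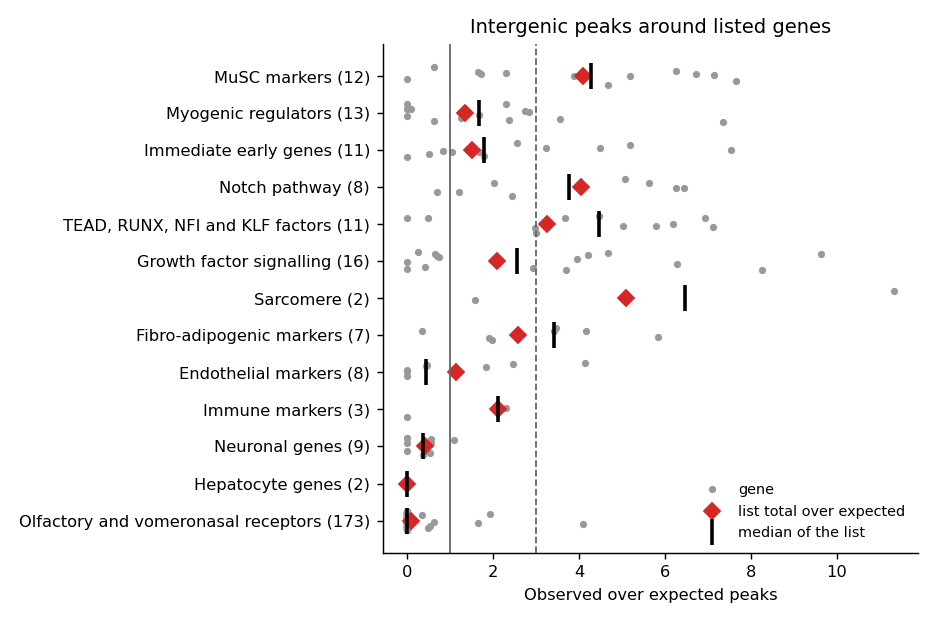
Ratio of observed to expected distal intergenic peaks (horizontal axis) for genes of 13 lists, with the number of genes in parentheses, a grey point per gene, a red diamond for the list total and a black bar for the median. Solid and dashed lines mark ratios of 1 and 3, and the receptor list has a total ratio of 0.09.

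The peaks formed runs along the chromosome. When peaks with gaps under 10 kb were chained, there were 6420 series, of which 3053 were a single peak. The 907 series of 5 or more held 7091 peaks (42.8%) and the 200 series of 10 or more held 2675 (16.1%). The largest numbers, 31 each, were in a series of 76.9 kb between Slc45a1 and Errfi1 (chr4:150715689-150792601), of which peaks covered 64.9%, and one of 101 kb between Ackr3 and Cops8 (chr1:90343019-90443694). Errfi1 encodes a feedback inhibitor of epidermal growth factor receptors, and Ackr3 an atypical receptor for the ligand of Cxcr4. Next came 27 peaks upstream of Jag1 (chr2:137567127-137647304), at 450.5 to 529.9 kb from its TSS. Series of 26 lay beside Rpl38, at 124 to 199 kb from it, and between Foxa2 and Sstr4.

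The centres of the peaks were compared with off-peak sequence of the same kind. The 300 bases around each midpoint were set beside 2302686 tiles of 300 bases that filled the same intergenic space and touched no peak. Peak centres were richer in G and C, with a median of 45.3% against 40.3%, and on average 18.9% of a centre was soft-masked repeat against 39.6% of a tile. Reads with several alignments had been discarded, which lowers the chance of a peak in repeats, and the part of this in the difference was not tested.

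E-box letters were more frequent in the centres than in the tiles. A match to CAGCTG was present in 17.9% (17.3 to 18.5) of the centres and in 9.35% of the tiles, a ratio of 1.91. The ratio was above 1 on 19 of 19 autosomes, from 1.69 on chromosome 7 to 2.22 on chromosome 18, with a mean of 1.92 ± 0.12 (SD, n = 19 autosomes). It fell to 1.40 when the tiles were weighted to the GC content of the centres, and in each of 7 classes of GC content from 30% to 65% the share was higher in the centres. Of 12 palindromes of 6 letters without CpG, CAGCTG had the highest ratio after weighting, and the next was 1.24 for GCATGC. The palindromes were added after the E-box share was seen. Peaks at the same distance inside genes had the E-box in 17.6% (17.1 to 18.1) and peaks within 1 kb of a TSS in 16.8%, so the share was not particular to intergenic peaks. In the profile of matches around the midpoints, E-boxes occurred at 0.70 per kb within 100 bp of the midpoint and at 0.51 per kb at 1500 to 2000 bp.

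**Figure D5:**
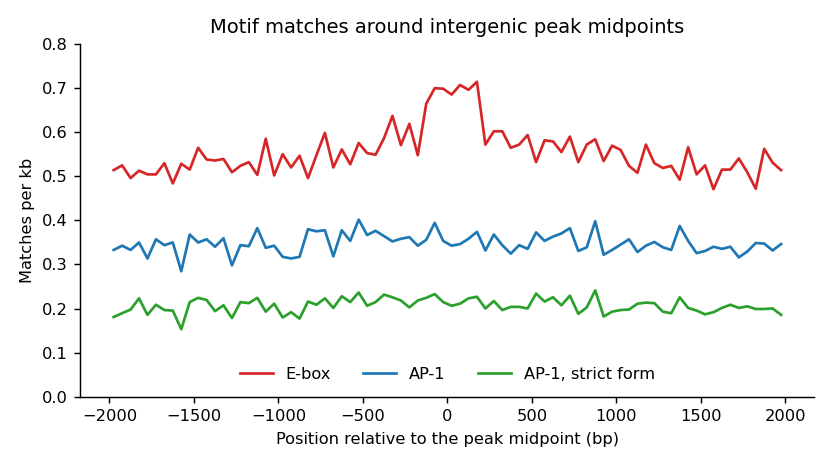
Matches per kb (vertical axis) in bins of 50 bp around the midpoints of the distal intergenic peaks (horizontal axis, bp), for the E-box, AP-1 and the strict AP-1 letters. The E-box rises to 0.70 per kb within 100 bp of the midpoint, whereas AP-1 stays between 0.28 and 0.40 per kb over all bins.

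AP-1 letters differed much less. TGANTCA was present in 9.87% (9.42 to 10.3) of the centres and 8.93% of the tiles, a ratio of 1.105, and the same letters read backwards, ACTNAGT, gave a ratio of 1.103. Over the autosomes the ratio ran from 0.89 on chromosome 2 to 1.28 on chromosome 17 and was above 1 on 17 of 19. It was 0.96 among windows at most 50% soft-masked, which turns its direction. The strict form TGACTCA, added after these values were seen, was present in 6.15% of centres against 4.49% of tiles (ratio 1.37, and 1.28 after GC weighting), and its reversed letters ACTCAGT gave 1.22 and 1.19. In the profile, TGANTCA occurred at 0.36 per kb within 100 bp of the midpoint and 0.34 per kb at 1500 to 2000 bp, bins there running from 0.28 to 0.37.

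The other letters searched, on both strands, were GGAATG for TEAD, TGTGGT for RUNX, TTGGCA for NFI (a part of its full palindromic site), TGGGAA for RBPJ, GTCACG for the paired domain of Pax proteins and GGGCGG for the GC box. Some of these can overlap, as TGGGAA and GGAATG share the letters GGAA, and the strict AP-1 form lies within the general one. Their ratios after GC weighting were 0.99 for TEAD, 1.07 for RUNX, 1.16 for NFI, 1.14 for RBPJ, 1.21 for the GC box and 1.48 for the Pax letters, the last being above the 1.40 of the E-box. Without weighting, the GC box had the highest ratio of the motifs searched, 2.19, and the Pax letters had 1.86, with matches in 4.31% and 3.84% of centres and 1.97% and 2.06% of tiles. Both hold a CpG, and centres had 3.48 CpG per 300 bases against 2.08 in tiles. For TEAD and RUNX the reversed letters gave 1.03 and 0.91.

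E-boxes were not spread evenly over the peaks. Peaks that stood alone in the chaining above had the E-box in 20.96% (19.6 to 22.4) of centres, those in series of 2 to 4 in 17.5% (16.6 to 18.4), those in series of 5 to 9 in 17.1% (16.1 to 18.3) and those in series of 10 or more in 16.5% (15.2 to 17.98). The share in series of 5 or more was below that of lone peaks on 17 of 19 autosomes, by a mean of 4.02 ± 3.49 percentage points (SD, n = 19 autosomes). In series of 10 or more it was below on 13 of the 18 autosomes that had such series. Median GC content was 45.3% in the first 3 of these classes and 46.0% in the last, while CpG fell from 4.41 per 300 bases in lone peaks to 3.00 in series of 10 or more. Among centres of 40 to 45% GC the shares were 18.2% (15.8 to 20.97) in lone peaks and 12.3% (10.1 to 14.9) in series of 10 or more. Among centres of 45 to 50% GC the shares were 21.4% (18.8 to 24.2) in lone peaks and 17.8% (15.4 to 20.5) in series of 10 or more, and these intervals overlap, as do those at 50 to 55% GC, 27.3% (23.7 to 31.3) and 22.6% (19.2 to 26.4). Of the 870 peaks of the 15 genes with most peaks, 109 had an E-box, 12.5% (10.5 to 14.9), and of the 252 peaks of the 10 genes with the highest ratios, 42 had one, 16.7% (12.6 to 21.8), an interval that includes the share over all peaks. Width made no visible difference, with 17.8% in the narrowest and 17.8% in the widest of 3 equal groups, and neither did side, with 17.6% upstream and 18.2% downstream. These classes were formed after the values were seen, and no test was made.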

How the data were processed

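H3K56ac and input libraries were made from sorted MuSCs in 4 groups of 2 (8 samples). Per the study's methods, the authors trimmed reads with Trim Galore, aligned them to mm10 with bowtie keeping single alignments, removed duplicates with Picard, called peaks with MACS2 at a q-value of 0.05, removed blacklisted regions and merged the intervals with GenomicRanges. The submitters' processing notes also name FastQC, SAMtools and deepTools. The deposited list has chromosome, start and end, and its score column, which the authors left at 0 in every row, holds no measurement. There were 0 columns of values per sample, and which libraries entered the merge is not given in the sources used here. Merging widens intervals and adds those of all callings, so numbers and widths describe the union.

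Sex chromosomes (2108 peaks) and 555 peaks of 5000 bp or wider were left out. Distances ran from the nearest edge of a peak to the nearest TSS of GENCODE vM21. Eligible bases were found by the same rule base by base. Motif matches were counted on both strands of GRCm38 and the shared functions were tested on simulated data (19 of 19 checks passed). Shares carry Wilson 95% intervals, counts exact Poisson intervals and medians order-statistic intervals, and all cover counting error only. Gene ranks rest on a minimum of 20 kb of eligible sequence. The genes named are the 15 with most peaks, the 10 with the highest ratio (at least 50 kb and 5 peaks) and the 10 longest without a peak. Also named are all MuSC markers, up to 4 genes of each list, those with the most peaks, and those at the 5 longest runs by number of peaks. Further genes of a list, among them those with few peaks, were named after values were seen. The stretches between gene pairs and further genes across from a named one were chosen after values were seen. The peaks and the gene lists were chosen with earlier results of these data known. No test between genotypes was possible, and none was made across peaks or genes. Python 3.11.15, numpy 2.4.6, pandas 2.3.3, scipy 1.17.1 and matplotlib 3.10.9 were used.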

Additional observations from a re-analysis of the deposited data

How the results depend on the processing

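No paired analysis was possible because the list has no values per replicate, and for the same reason no replicate could be left out. With intervals joined where the gap was under 1 kb there were 8217 peaks, 11.3 per Mb, a median width of 1070 bp, an AP-1 share of 10.7% and ratio of 1.20, and an E-box share of 18.6% and ratio of 1.99. With protein-coding annotation only, the density was 35.4 per Mb, the upstream share 63.4%, the share with a neighbour within 1 kb 59.2%, the median GC 46.7% and the E-box ratio 1.70. Distance from the midpoint gave 23.5 per Mb. A minimum width of 500 bp gave 19.2 per Mb, a median of 986 bp and 56.6% with a neighbour, and no upper width limit gave 23.6 per Mb and 880.5 bp. Central windows of 200 bases gave an AP-1 share of 6.65% and an E-box share of 12.3%, and windows of 500 bases gave 16.0% and 27.0%, with a median GC of 45.2% and an E-box ratio of 1.80. Tiles weighted to GC gave an E-box ratio of 1.40, and windows at most 50% soft-masked gave 1.77 and an AP-1 ratio of 0.96. With at least 50 kb of eligible sequence, 1722 genes had a peak and 455 reached 3 times the mean density, since fewer genes were counted. A gap under 500 bp gave 48.7% with a neighbour. The cause of the other shifts was not tested. Of 63 values under 11 alternatives, 33 stayed within the interval, or within 1.5 times the count, of the reported value. The E-box alternatives were added after the data were seen. The list holds no reads per peak, so what depth limits could not be computed from it.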

Other observations

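Some distal intergenic peaks had the composition of a CpG island. GC content over 50% with a CpG number over 0.6 times that expected from the base composition was found for 46 of the 16577 peaks, 0.28% (Wilson interval 0.21 to 0.37), and 12 of the 46 lay within 1 kb of a RefSeq gene start. The kind of gene at the nearest TSS went with small differences in E-box share. Peaks nearest to a coding TSS had an E-box in 19.1% of centres (18.04 to 20.1), those nearest to a lincRNA in 18.1% (17.0 to 19.2), and those nearest to a processed pseudogene in 15.8% (14.6 to 17.0), where median GC content was 46.3%, 46.0% and 44.0%.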
